A study of Nothobranchius furzeri with 228 samples.

Results

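The 100 genes described here rose between the 2 fin clips of the same fish in each of 3 ranges of fish numbers. They were taken from fin clips of *Nothobranchius furzeri*, the turquoise killifish, a very short-lived vertebrate used to study aging. All 114 fish were males of the strain MZM-0410 under normal aging, without treatment, clipped at 20 weeks and, before that, at 10 weeks of age, which gave 114 libraries per age and 228 in all. Each fish was then followed to its death, at an age known for all but 1 of them.

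For each gene the level was expressed as CPM, the count of a gene scaled to the total count of its library (counts per 1000000), and the change as the difference of log2(CPM + 1) within a fish, 20 weeks minus 10 weeks. A change of 1 therefore stands for about a doubling of the level, somewhat understated for genes at a few CPM. Of 26739 genes in the count table, 12258 had a mean of at least 5 CPM over all libraries. The mean change of each of these was taken in fish 1 to 50 (n = 48), 51 to 84 (n = 34) and 85 upwards (n = 32), genes were ordered by the smallest of the 3 means, and the first 100 were taken. The genes were thus chosen by their measured changes between the 2 ages, so the rise between the clips is given as a description and not tested. As a background, 1920 of 12258 genes (15.7%) had a mean change above 0 in all 3 ranges and 681 (5.56%) were higher at 20 weeks in at least 75% of fish, against 100 and 89 of the 100 genes chosen for it.

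The second clip came from an older fish that had already been clipped once, so age and an earlier clip cannot be told apart. The fin clip is a mixture of epidermis, connective tissue, bone-forming cells, vessels, nerves, pigment cells and blood cells. In such a bulk sample, fewer cells of a type and less RNA per cell cannot be told apart. Keratin 76 (KRT76) stood at 131100 CPM at 20 weeks, against 140500 CPM at 10 weeks, and the 33 identified genes of collagens and matrix summed to medians of 11370 CPM at 20 weeks and 15410 CPM at 10 weeks.

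Library totals lay between 15854077 and 37764097 counts. The scaling factors of the libraries by TMM (the trimmed mean of M values, a correction for differences in composition) lay between 0.639 and 1.17, with 3 libraries at 20 weeks and 1 at 10 weeks under 0.8. In 11 fish the 2 samples did not match each other over the 300 genes that vary most steadily between individuals, with correlations of -0.362 to 0.237, against a median of 0.862 and a lowest value of 0.488 in the other, matched fish. They were fish 18 and 43 and 9 fish with numbers from 95 upwards, whose samples matched those of other fish of the same 9. All 100 genes kept a mean change above 0 in every range without these 11 fish, with a lowest range mean of 0.21, and 86 of them were again among the first 100. The median change over the 100 genes in the matched fish moved with the change of the TMM factor (Pearson r = 0.365, Spearman rho = 0.248) and less with that of the total count (r = -0.149), and their part in the rise was not tested. With TMM-scaled library sizes, 92 of the 100 genes were again chosen and all 100 kept a mean change above 0 in every range.

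The identifiers of 31 of the 100 genes had a name in the identifier tables of the study, which pair them with the closest human gene for 29 and with a fish name for the other 2, against 33.6% of all 12258 genes. Roles given below are those of the mammalian genes of that name, and the other 69 genes are given by identifier. CPM is not corrected for transcript length, so the CPM of different genes are not a comparison of their levels.

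The rise ran through nearly every fish. The median change over the 100 genes was above 0 in all but 1 of 114 fish, with a median over fish of 0.58, a highest value of 1.16 and a lowest of -0.02 in fish 24. A fish had between 47 and 100 of these genes higher at 20 weeks, with a median of 88. The median fish of each range stood at 0.42 in fish 1 to 50, at 0.70 in fish 51 to 84 and at 0.65 in fish from 85 upwards. In the same fish the median change over all 12258 genes lay between -0.54 and 0.53.

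**Figure D1:**
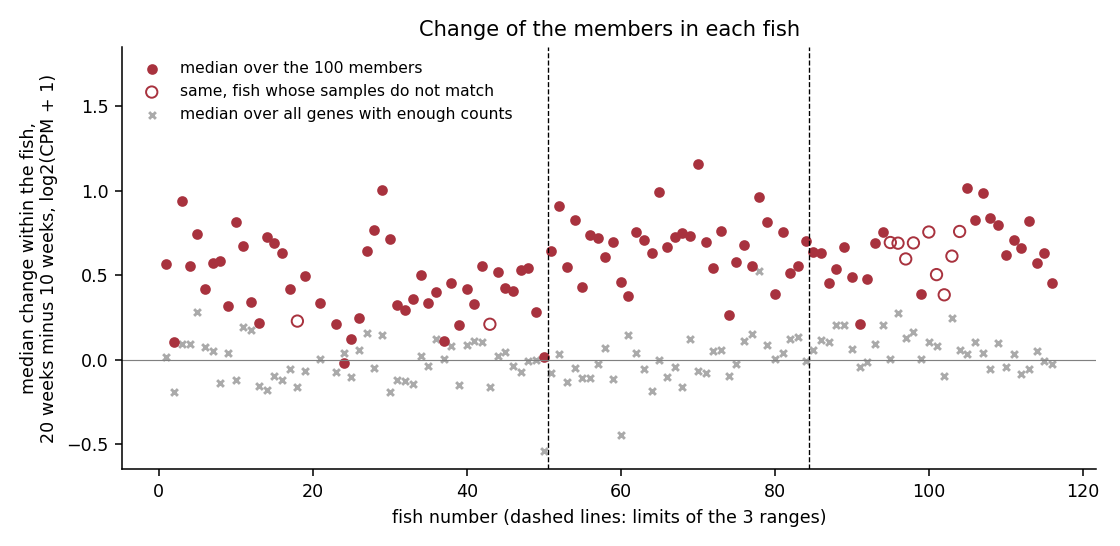
Median change within each fish (y axis, 20 weeks minus 10 weeks, log2(CPM + 1)) over the 100 genes (red) and over all 12258 genes (grey crosses), by fish number, with open circles for the 11 fish whose samples did not match and dashed lines at the limits of the 3 ranges. The red points lie above 0 in all but 1 of 114 fish, and the grey crosses scatter around 0. The 100 genes were chosen for a rise in these same fish.

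The unmatched fish are kept in the counts and SDs of single genes. These genes rose in at least 75 of 114 fish and at most in all but 1, with a median of 97 fish, and 21 rose in at least 90% of fish. Their mean changes over all fish ran from 0.34 to 1.44 with a median of 0.57, and 6 lay above 1. The distributions of the 2 ages overlapped in all of them, and in 35 the lower quartile at 20 weeks lay above the upper quartile at 10 weeks. The genes were chosen for a rise, and the counts for 90% of fish and for the quartiles were not made over all 12258 genes. No library had a count of 0 for any of the 100. The genes lay between 6.30 and 2613 mean CPM at 20 weeks, with 51 under 20 CPM and 16 over 100 CPM, and the count behind them may be read from their median over both ages, 16.5 CPM, beside 23.6 CPM for all 12258 genes.

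The size of the rise differed between the ranges. The smallest range mean was that of fish 1 to 50 for 72 genes, of fish 51 to 84 for 12 and of fish from 85 upwards for 16. The largest was found in fish 51 to 84 for 50 genes, in fish from 85 upwards for 45 and in fish 1 to 50 for 5. In 50 genes the largest range mean was more than 2 times the smallest, and in 19 it was within 1.5 times. The median range mean of the 100 genes was 0.39, 0.61 and 0.61 in the 3 ranges in numerical order, beside -0.01, 0.00 and 0.07 for all 12258 genes. Their changes also spread more over fish, with median SDs of 0.61, 0.61 and 0.49 in the 3 ranges against 0.43, 0.42 and 0.28 for all genes. These changes chose the genes, whose median level over both ages was 16.5 CPM, beside 23.6 CPM for all 12258 genes. The part of the choice and of the lower level in this spread was not tested. In 99 of the genes, all chosen for a rise in each range, the median CPM at 20 weeks was above that at 10 weeks in all 3 ranges. The exception, Nfu_g_1_020330, had medians of 10.5 CPM at 20 weeks and 11.8 CPM at 10 weeks in fish 1 to 50.

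**Figure D2:**
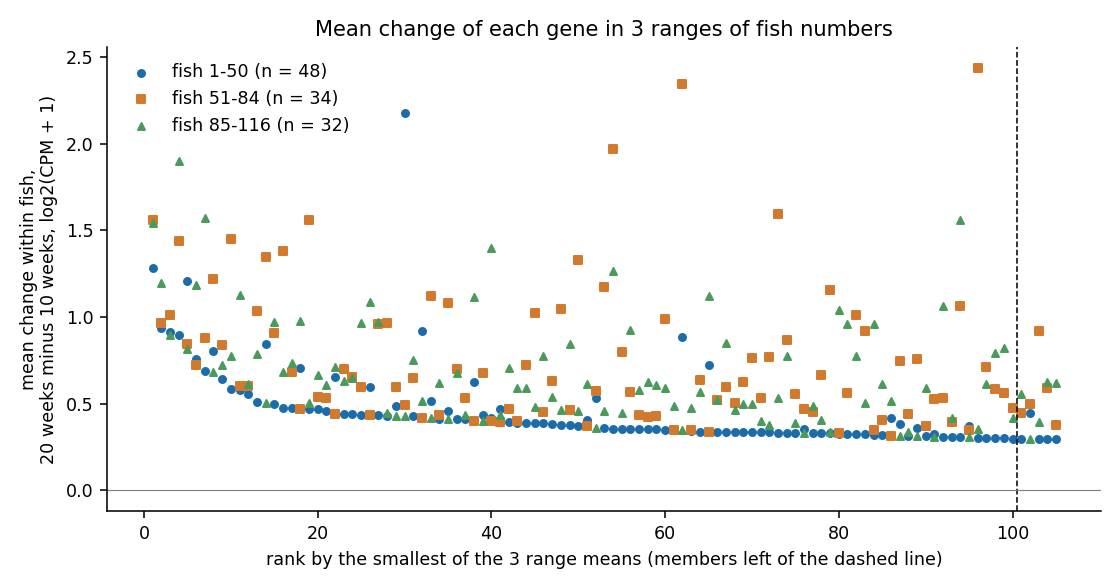
Mean change within fish (y axis, 20 weeks minus 10 weeks, log2(CPM + 1)) in fish 1 to 50 (blue circles), 51 to 84 (orange squares) and 85 upwards (green triangles) for the 100 genes and the next 5, by rank of the smallest mean (x axis). The blue circles form the lower edge for 72 of the 100 genes, and single genes reach above 2 in 1 range.

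The limit of the list cuts through a dense series of values. The last 5 genes chosen, Nfu_g_1_019448, Nfu_g_1_006785, Nfu_g_1_021382, Nfu_g_1_015665 and Nfu_g_1_017652, had smallest range means of 0.3008, 0.2998, 0.2994, 0.2988 and 0.2979. The next 5 genes, Nfu_g_1_013979, Nfu_g_1_009502, Nfu_g_1_000500, Nfu_g_1_006358 and Nfu_g_1_022864, had 0.2975, 0.2974, 0.2964, 0.2953 and 0.2946. Nothing separates the genes on the 2 sides of the limit.

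At the head of the list, Nfu_g_1_007509 ranged from 9.0 to 152 CPM with a median of 42.6 CPM at 20 weeks, and from 2.30 to 71.5 CPM with a median of 16.3 CPM at 10 weeks. It was higher at 20 weeks in all but 1 of 114 fish, and its mean change of 1.44 ± 0.79 (SD, n = 114) was made of 1.28, 1.56 and 1.54 in the 3 ranges in numerical order. Its steepness was therefore alike in the 3 ranges, unlike that of most of the list. The next, Nfu_g_1_012291, had 13.7 ± 4.74 CPM at 20 weeks, against 6.32 ± 2.67 CPM at 10 weeks, and was higher at 20 weeks in 110 fish. Among the first 10 genes, Nfu_g_1_006786 had one of the smaller spreads, with a change of 0.94 ± 0.39. It stood at 13.8 ± 3.13 CPM at 20 weeks and 6.67 ± 1.36 CPM at 10 weeks. It was higher at 20 weeks in all but 3 fish.

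Nfu_g_1_012928 stood at 124 ± 62.4 CPM at 20 weeks and 50.1 ± 27.3 CPM at 10 weeks, with range means of 0.89, 1.44 and 1.90. Nfu_g_1_017480 stood at 174 ± 90.3 CPM at 20 weeks, against 96.5 ± 54.7 CPM at 10 weeks, and Nfu_g_1_014227 at 26.8 ± 16.6 CPM at 20 weeks and 12 ± 6.49 CPM at 10 weeks. Nfu_g_1_004948 was different in kind, since it varied over 3 orders of magnitude between fish, from 0.494 to 560 CPM (median 3.41 CPM) at 20 weeks and from 0.197 to 252 CPM (median 1.70 CPM) at 10 weeks. Fish that were high at the first clip tended to be high again at the second, and within fish it rose in 91 of 114. Its median at either age lay under the mean of 5 CPM required, so its place in the list rested on its higher libraries.

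HFM1, a helicase known from meiotic crossing over, ranged from 3.41 to 24.2 CPM with a median of 10.0 CPM at 20 weeks, and from 1.61 to 13.8 CPM with a median of 5.61 CPM at 10 weeks. It was higher at 20 weeks in all but 1 of 114 fish, with a change of 0.72 ± 0.33 (SD, n = 114) and range means of 0.64, 0.84 and 0.72. Among the 10 genes at the head of the list this was the smallest spread of the change, although the 2 ages still overlapped.

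Several of the named genes encode proteins of the cell surface. GFRA4, a co-receptor for a ligand of the GDNF family of neurotrophic factors, had a median of 17.3 CPM (2.72 to 43.8) at 20 weeks and of 6.91 CPM (1.30 to 21.7) at 10 weeks. It rose in all but 13 fish by 0.99 ± 0.86, and it was one of the 5 genes with the largest range mean in fish 1 to 50, at 1.21 beside 0.84 and 0.82. KCNMA1, the pore-forming subunit of a calcium-activated potassium channel, had a median of 30.3 CPM (8.90 to 60.7) at 20 weeks and of 18.5 CPM (3.46 to 41.1) at 10 weeks. It rose in all but 12 fish. PTPRZ1, a receptor-type tyrosine phosphatase of glia and neural progenitors, had 17.5 ± 7.96 CPM at 20 weeks, against 11.1 ± 4.57 CPM at 10 weeks, and rose in 95 fish.

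SEMA7A, a membrane-anchored semaphorin that acts in axon growth and immune cells, had 22.6 ± 11.8 CPM at 20 weeks and 14.9 ± 6.89 CPM at 10 weeks. SCUBE1, a secreted and surface protein of endothelium and platelets, had 49.3 ± 38.9 CPM at 20 weeks and 23.8 ± 10.2 CPM at 10 weeks, with range means of 0.48, 1.38 and 0.68. ADAM11, a catalytically inactive member of the ADAM family, had 25.8 ± 7.24 CPM at 20 weeks and 19.6 ± 4.07 CPM at 10 weeks. ANO8, of the anoctamin family, had 7.97 ± 5.10 CPM at 20 weeks and 4.38 ± 2.25 CPM at 10 weeks. The gene with the fish name stxbp5l, of the tomosyn family that restrains vesicle fusion, had 8.31 ± 5.31 CPM at 20 weeks, against 3.92 ± 2.84 CPM at 10 weeks, and rose in 99 fish.

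Other genes act in defence and lipid transport. C4B, complement component 4, which is cleaved early in the classical and lectin pathways to mark targets for opsonisation, had a median of 295 CPM (22.5 to 4913) at 20 weeks and of 167 CPM (29.3 to 3102) at 10 weeks. It rose in 92 fish with range means of 0.43, 0.96 and 0.97, and single fish at either age stood more than 10 times above the median. CXCL14, a chemokine made by epithelia, had a median of 10.4 CPM (0.993 to 48.9) at 20 weeks and of 6.96 CPM (1.56 to 25.1) at 10 weeks, and rose in 96 fish. It was higher at 20 weeks in all 32 fish of the range from 85 upwards.

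APOE (apoeb in this species), the apolipoprotein that carries lipids between cells and is made in quantity by macrophages and glia, ranged from 1514 to 5383 CPM with a median of 2544 CPM at 20 weeks, and from 749.5 to 3255 CPM with a median of 1737 CPM at 10 weeks. It rose in all but 11 of 114 fish by 0.53 ± 0.42, with range means of 0.38, 0.46 and 0.84, and in all 32 fish of the range from 85 upwards. A second gene with the same human name, Nfu_g_1_012304, stood at 0.0683 CPM at 20 weeks and 0.0663 CPM at 10 weeks.

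STEAP4, a metalloreductase induced in inflamed tissue and fat, had a median of 11.4 CPM (2.83 to 100.6) at 20 weeks and of 5.94 CPM (1.30 to 49.6) at 10 weeks. It rose in 98 fish, in all 34 fish of the range 51 to 84 among them, where its mean change was 1.45.

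A few named genes are known from stress responses. CDKN1A, the inhibitor p21 of cyclin-dependent kinases and a target of p53, had a median of 9.34 CPM (1.55 to 73.5) at 20 weeks and of 5.87 CPM (1.56 to 52.4) at 10 weeks. It rose in 80 fish, by 0.32, 0.33 and 1.04 in the 3 ranges, and in 31 of 32 fish of the last. The other gene named CDKN1A, Nfu_g_1_011849, stood at 207 CPM at 20 weeks and 120 CPM at 10 weeks. It was not among the 100, with range means of 0.10, -0.21 and 3.40. Both copies thus had their largest range mean in fish from 85 upwards.

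JUNB, a subunit of the transcription factor AP-1 and an immediate-early gene, had a median of 83.1 CPM (39.8 to 796) at 20 weeks and of 59.6 CPM (25.4 to 418) at 10 weeks. It rose in 80 fish. IGFBP1, a binding protein of insulin-like growth factors induced by fasting and stress, rose in 75 of 114 fish, the fewest of the list, with 8.0 ± 5.43 CPM at 20 weeks, against 5.63 ± 3.80 CPM at 10 weeks. HSPA6 (fish name hspa8l), of the HSP70 chaperones, had 6.63 ± 2.64 CPM at 20 weeks, against 4.44 ± 1.48 CPM at 10 weeks, and rose in all but 12 fish. Its relative Nfu_g_1_005309, which carries the same human name at 1613 CPM at 20 weeks and 1400 CPM at 10 weeks, had smaller range means of 0.09, 0.26 and 0.29. Reads of such near copies may have been divided between them in counting.

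Of epidermal genes, DSG3, a desmosomal cadherin that holds keratinocytes together, ranged from 190 to 1267 CPM with a median of 403 CPM at 20 weeks, and from 75.5 to 905 CPM with a median of 232 CPM at 10 weeks. It rose in all 34 fish of the range 51 to 84, with a mean of 1.56, but in 31 of 48 fish of the range 1 to 50 and 23 of 32 of the range from 85 upwards. The range medians of DSG3 at 20 weeks were 347, 561 and 395 CPM, against 248, 198 and 385 CPM at 10 weeks. In fish from 85 upwards the 2 medians were thus close. CSTA, a cystatin that inhibits cathepsins in the cornified envelope, stood at 1606 ± 638 CPM at 20 weeks, against 1230 ± 417 CPM at 10 weeks, and rose in 97 fish.

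Among genes of protein synthesis and folding, RSL24D1, which is needed to assemble the large ribosomal subunit, ranged from 457 to 1785 CPM with a median of 758 CPM at 20 weeks, and from 208 to 864 CPM with a median of 502 CPM at 10 weeks. It rose in 110 of 114 fish, in all of those numbered 51 and above, by 0.75 ± 0.40. PDCL3, a phosducin-like co-chaperone of the chaperonin that folds tubulin and actin, had 137 ± 55.8 CPM at 20 weeks and 90.2 ± 24.6 CPM at 10 weeks, with range means of 0.32, 0.92 and 0.50. The gene eef2b, a copy of the elongation factor that moves the ribosome along, had 58 ± 25.4 CPM at 20 weeks, against 36.7 ± 24.4 CPM at 10 weeks, and rose in 100 fish.

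The remaining named genes have diverse roles. MYLIP, a ubiquitin ligase that removes the LDL receptor, had 44.5 ± 15.3 CPM at 20 weeks and 28.2 ± 6.42 CPM at 10 weeks. CRACR2A, a regulator of store-operated calcium entry in T cells, had 14 ± 4.01 CPM at 20 weeks and 9.14 ± 2.54 CPM at 10 weeks. RAP1GAP, which switches off the small GTPase RAP1, had 21.9 ± 7.53 CPM at 20 weeks and 15.5 ± 4.28 CPM at 10 weeks.

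RBFOX3, an RNA-binding splicing factor used as a marker of neurons, had 9.06 ± 2.17 CPM at 20 weeks and 6.62 ± 1.39 CPM at 10 weeks, a small rise of 0.39 ± 0.36 that was found in 99 fish. BCAS1, known from maturing oligodendrocytes, had 36.8 ± 13 CPM at 20 weeks and 26.6 ± 7.41 CPM at 10 weeks. POMZP3, which resembles zona pellucida proteins, had 57.5 ± 15.5 CPM at 20 weeks and 36.3 ± 13.3 CPM at 10 weeks. KIAA0408 had 27.4 ± 9.03 CPM at 20 weeks and 17.5 ± 5.39 CPM at 10 weeks.

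**Figure D3:**
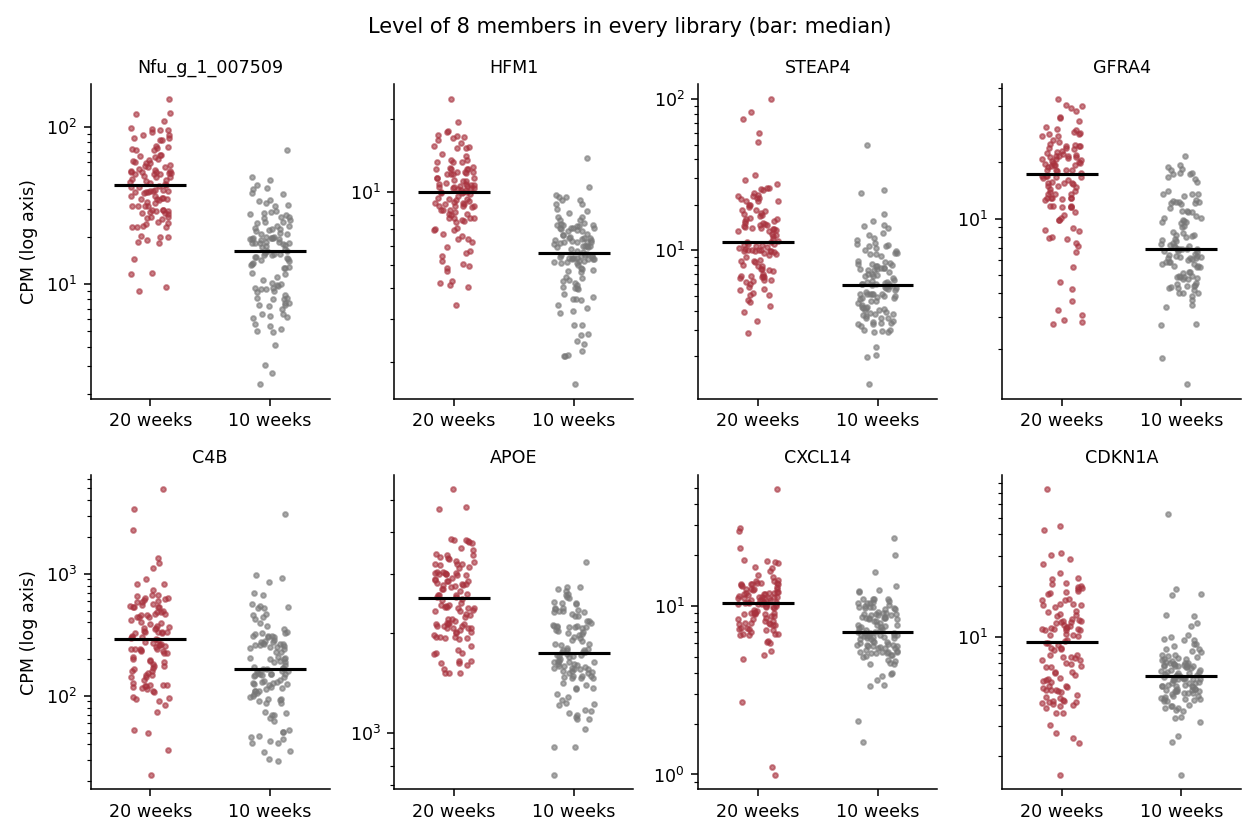
CPM (log axis) of 8 of the 100 genes in every library at 20 weeks (red, left) and 10 weeks (grey, right), with a bar at the median of the 114 libraries of that age. The medians stand higher at 20 weeks in all 8, such as 2544 CPM for APOE at 20 weeks against 1737 CPM at 10 weeks, and the 2 ages overlap in each.

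Some unnamed genes rose mainly in 1 range. Nfu_g_1_022824 had range means of 2.18, 0.49 and 0.43, and its medians in fish 1 to 50 were 22 CPM at 20 weeks and 3.26 CPM at 10 weeks. Nfu_g_1_019448 had range means of 0.30, 2.43 and 0.35, and its medians in fish 51 to 84 were 25.2 CPM at 20 weeks and 4.37 CPM at 10 weeks. Nfu_g_1_006434 had 0.89, 2.35 and 0.35, and its medians in fish 51 to 84 were 12.2 CPM at 20 weeks and 1.25 CPM at 10 weeks.

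Of the genes in the 19 lists of markers and pathways examined, which are partial since most genes have no name, 3 were among the 100, namely APOE among macrophages and granulocytes, C4B in complement and coagulation and CDKN1A both in p53 and senescence and among circadian clock and glucocorticoid targets. The other genes of these lists were compared between the ages by edgeR's quasi-likelihood test with the fish as a block, in which 5566 of 17116 genes tested (32.5%) were higher at 20 weeks and 5088 (29.7%) lower at an adjusted p under 0.05. Of the other macrophage and granulocyte genes, 4 of 8 tested were higher and 0 lower, with a median log2 fold change of 0.08, beside 0.00 over all genes. Without APOE the 10 identified genes of that list summed to 304 to 2191 CPM (median 1130) at 20 weeks and to 636 to 2504 CPM (median 1087) at 10 weeks, and the sum was higher at 20 weeks in 77 of 114 fish. Of the other complement and coagulation genes 4 of 12 were higher and 0 lower, and of the other p53 and senescence genes 4 of 10 were higher and 2 lower. Of the other circadian clock and glucocorticoid targets 13 of 28 were higher and 2 lower over all fish, but the list moved differently in the ranges, with median changes of 0.02, 0.89 and -0.18 in numerical order. The clock gene PER1 had range means of -0.14, 2.88 and -2.75.

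In the same libraries other lists moved as well, some down and some up. Of collagens and matrix 1 of 31 genes was higher at 20 weeks and 23 lower, with a median log2 fold change of -0.46, and the summed level ran from 2400 to 15840 CPM at 20 weeks and from 5946 to 23190 CPM at 10 weeks. All 3 identified osteoblast genes were lower, and their sum, 278 to 2724 CPM at 20 weeks and 1044 to 4134 CPM at 10 weeks, was higher at 20 weeks in 1 of 114 fish. Most of that sum was SPARC (mean 1367 CPM at 20 weeks and 2452 CPM at 10 weeks), which the collagens and matrix list holds as well. ALPL had range means of -0.44, -0.90 and -0.01. Of cell cycle genes 30 of 33 were lower over all fish, with median changes of -0.41, -1.20 and 0.04 in the 3 ranges in numerical order. Of epidermal genes 6 of 12 were higher and 3 lower, with summed medians of 8258 CPM at 20 weeks and 8072 CPM at 10 weeks. Of interferon response genes 6 of 15 were higher and 0 lower, of T and NK cell genes 3 of 4 were higher and 1 lower, of antigen presentation genes 2 of 2 were higher, and of pigment cell genes 2 of 6 were higher and 3 lower. Of nerve and glia genes 0 of 6 were higher and 3 lower, with a median log2 fold change of -0.24. The part of these shifts in the rise of the 100 genes was not tested.

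Differences between individual fish lasted from one clip to the next in some of the genes. Over the matched fish, with the mean of each range removed, the log2 level at 20 weeks and that at 10 weeks correlated with a median r of 0.276 over the 100 genes, against 0.162 over all 12258. The r exceeded 0.5 in 23 of the 100 genes, against 5.87% of all genes. These r share the 2 libraries of a fish and are a description. The steadiest were Nfu_g_1_004948 (r = 0.880), Nfu_g_1_008171 (0.869), Nfu_g_1_019289 (0.849) and Nfu_g_1_019642 (0.840), and among named genes eef2b (0.669), HFM1 (0.647) and POMZP3 (0.626). In such genes a fish kept its place among the others while the whole group moved upwards. At the other end, IGFBP1 had an r of -0.027. The SD over fish at 20 weeks exceeded that at 10 weeks in 69 of the 100 genes, against 64.7% of all genes. The 100 genes also varied more between fish, with median SDs of 0.547 at 20 weeks and 0.506 at 10 weeks, against 0.325 and 0.306 over all genes. The part of this wider spread in their higher r was not tested.

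The changes of the 100 genes did not form one block. Over the matched fish, again within ranges, the correlation of the changes of 2 of these genes had a median of 0.131, with 5th and 95th percentiles of -0.251 and 0.537. For every 12th of the 12258 genes the median was 0.099 and the percentiles were -0.404 and 0.612. Joining genes by average linkage (at a limit of 0.6 on 1 - r) gave 9 groups of 3 or more, which held 70 of the 100 genes. The changes within a group share the same pairs of libraries, so that depth and composition of a library enter all of them, and the groups, and the genes outside the list named below for their likeness, were chosen after the values were seen. Of 12158 genes outside the list, only those with a name, 4091, are given for their likeness.

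**Figure D4:**
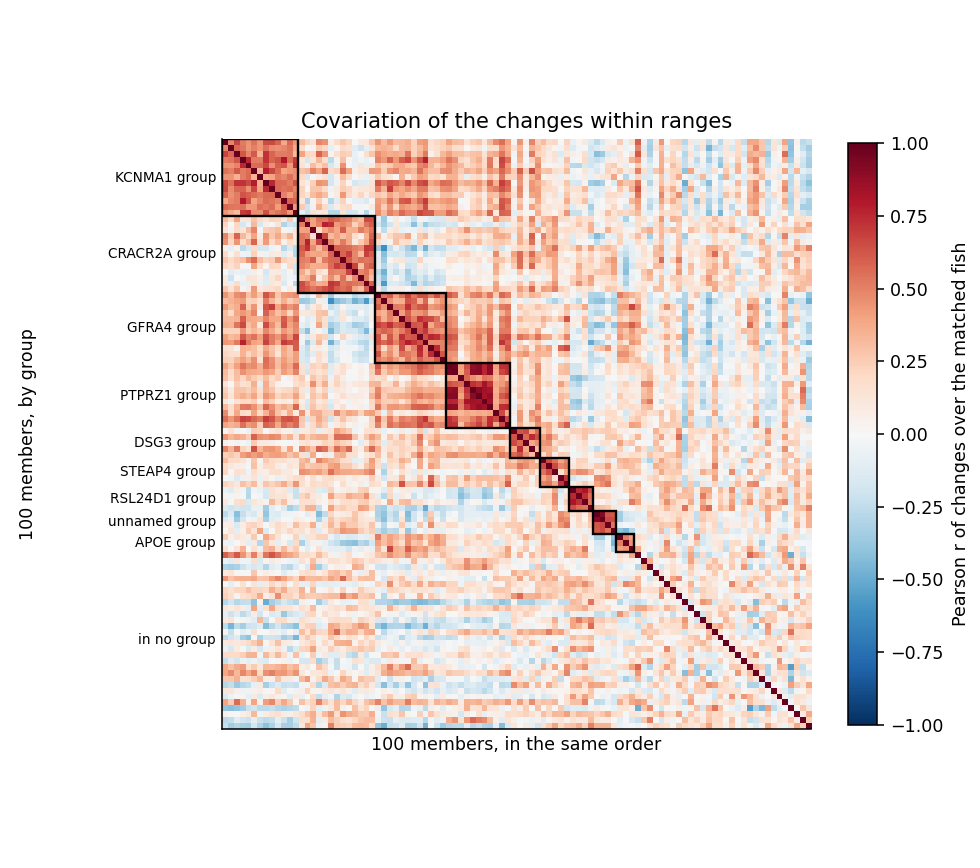
Pearson correlation (colour, -1 to 1) of the changes of the 100 genes over the matched fish, with the range means removed, ordered by the 9 groups (black squares, labelled by a leading gene) and followed by the 30 genes in no group. The squares of the RSL24D1 and PTPRZ1 groups are the darkest, with median r of 0.688 and 0.657.

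A group of 11 genes held PTPRZ1, ANO8, RAP1GAP, Nfu_g_1_014227 and Nfu_g_1_022824, with a median r of 0.657 and a highest of 0.961, between ANO8 and Nfu_g_1_014227. The median r of this group was 0.666, 0.618 and 0.708 in the 3 ranges taken apart. The named gene outside the list most like its mean change was AGR2 (r = 0.896), a disulfide isomerase of mucus-secreting cells, followed by ECE2 (0.765). AGR2 itself had range means of 0.22, -0.14 and 0.32, and so went with these genes from fish to fish without rising in every range.

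The group of 12 genes around GFRA4 also held SCUBE1, C4B, CXCL14, SEMA7A and Nfu_g_1_012928, with a median r of 0.526. Most like its mean change were AXL (0.954), a receptor tyrosine kinase of phagocytes that clears dying cells, the mannose receptor MRC1 (0.914), AIF1L (0.906) and the granulocyte colony-stimulating factor receptor CSF3R (0.892). The median r of the group was 0.622 in fish 1 to 50 and 0.548 in fish 51 to 84, but 0.068 in the 23 matched fish of the range from 85 upwards.

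A group of 13 genes held CRACR2A, Nfu_g_1_012291, Nfu_g_1_016084 and Nfu_g_1_020330, with a median r of 0.501. Most like it were ARAP1 (0.923), FYCO1 (0.907), which moves autophagosomes, and the autophagy kinase ULK1 (0.871), and least like it were the ribosome biogenesis factors TSR1 (-0.893), PES1 (-0.890) and RSL1D1 (-0.881). TSR1 had range means of 0.06, -1.01 and -0.85. Another group of 13, with KCNMA1 and ADAM11, had a median r of 0.533, and GPC6 (0.878), DOCK5 (0.875) and the chromatin remodeller SMARCA2 (0.867) were most like it.

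RSL24D1, PDCL3, CSTA and Nfu_g_1_001405 changed together with a median r of 0.688. The named genes most like them were the translation factor EIF3K (0.869), the ribosome biogenesis factor NSA2 (0.860), TPT1 (0.859) and CCNG1 (0.854). NACA2 (0.8505), BTF3 (0.848) and the ribosomal protein genes RPL32 (0.842) and RPS25 (0.835) came next. RPL32 had range means of 0.11, 0.44 and 0.28, the smallest of which lies below the limit of the list. DSG3 and CDKN1A fell in a group of 5 whose nearest genes were the desmosomal cadherin DSC3 (0.922), KLF13 (0.870) and the glucocorticoid-induced TSC22D3 (0.838). DSC3 had range means of 0.31, 1.09 and -0.15, which kept it off the list.

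STEAP4 fell in a group of 5 near the cathepsin CTSB (0.733), LIMK1 (0.723) and C-reactive protein, CRP (0.718). A group of 4 unnamed genes, Nfu_g_1_014577, Nfu_g_1_002385, Nfu_g_1_002073 and Nfu_g_1_000326, was most like B2M (0.748), the light chain of class I antigen-presenting molecules. The levels of these 4 were correlated at each age, with median r of 0.758 at 20 weeks and 0.748 at 10 weeks. APOE fell with Nfu_g_1_006434 and Nfu_g_1_019448, at a median r of 0.451 that was -0.102 in the 23 matched fish of the range from 85 upwards.

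Age at death was not used to choose the genes. Its relation to each gene was examined with a Cox proportional hazards model over all fish but the 1 of unknown lifespan, each followed until it died, and 17116 genes were tested. A hazard ratio above 1 means that fish with 1 log2 unit more of the gene, or of its change, died earlier. The 3 ranges differed in lifespan, with median ages at death of 311 days in fish 1 to 50, 217 days in fish 51 to 84 and 409 days in fish from 85 upwards. Models were therefore read both without and with the 3 ranges as strata, which compares fish within a range only.

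Without strata, the change of 27 of the 100 genes was related to age at death at an adjusted p under 0.05 (Benjamini-Hochberg over all genes tested). In all, 8460 of 17116 genes (49.4%) were called. The genes were chosen by their changes in each range, which enter this model, so the 2 shares are not a comparison. In 24 of the 27 a larger rise went with an earlier death, and hazard ratios were above 1 in 4159 of the 8460 genes called in all. These directions are not a comparison either, since the choice used the mean changes of ranges that differ in lifespan. Beside SCUBE1 (hazard ratio 1.62), MYLIP (2.32) and DSG3 (1.52), the lowest p in this direction were those of Nfu_g_1_006434 (hazard ratio 1.45, 95% interval 1.29 to 1.64, adjusted p = 1.47e-07) and Nfu_g_1_019448 (1.46, 1.24 to 1.72, adjusted p = 4.28e-05). In the other direction they were those of Nfu_g_1_023475 (0.703, adjusted p = 0.00714) and Nfu_g_1_016084 (0.619, adjusted p = 0.0196). Nfu_g_1_006434 rose most in fish 51 to 84, the range of shortest life. Over all fish its median CPM lay, at either age, under the mean CPM required for the list. Its place in the list thus rested on its higher libraries, and their part in its hazard ratio was not tested.

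Within the ranges none of these calls remained. With the 3 ranges as strata, the change was called in 0 of 17116 genes (0.0%), and 8 of the 100 genes had an unadjusted p under 0.05, beside 7.78% of all genes. The hazard ratio of Nfu_g_1_006434 was then 1.26 (1.09 to 1.47, adjusted p = 0.402), that of Nfu_g_1_019448 was 1.17 (adjusted p = 0.797) and that of SCUBE1 was 1.34 (1.03 to 1.73, adjusted p = 0.614). Lifespan and the size of the rise both differed between the ranges of fish numbers, though not in the same order. The part of whatever differed between the ranges was not tested.

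The level at 20 weeks behaved alike. Without strata 32 of the 100 genes were called, 29 with a hazard ratio above 1, beside 7525 of 17116 genes (44%), 3567 of them above 1. The levels at 20 weeks enter the changes that chose the genes, so neither the shares nor the directions are a comparison. In 61 of the 100 genes the highest range median at 20 weeks was that of fish 51 to 84, the range of shortest life. At 10 weeks it was so in 44 of them, and neither count was made over all genes tested. The lowest p were those of Nfu_g_1_006434 (1.52, 1.34 to 1.72, adjusted p = 9.18e-09) and Nfu_g_1_019448 (1.51, adjusted p = 8.65e-08), and in the other direction those of Nfu_g_1_022824 (0.775, adjusted p = 2.96e-05) and Nfu_g_1_016084 (0.386, adjusted p = 0.0007). Among named genes RSL24D1 (3.36, 2.21 to 5.11), MYLIP (2.90), PDCL3 (2.67) and HFM1 (2.48) had high ratios, but APOE (1.31, 0.689 to 2.48) and CDKN1A (0.776, 0.603 to 0.999) were not called.

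With the 3 ranges as strata, the level at 20 weeks was called in 67 of 17116 genes (0.391%) and in 0 of the 100. An unadjusted p under 0.05 was found in 7 of them, beside 14.1% of all genes. Nfu_g_1_006434 stood just outside the threshold, with a hazard ratio of 1.34 (1.15 to 1.57, adjusted p = 0.051). The gene ranged from 0.189 to 236 CPM with a median of 3.03 CPM at 20 weeks, and from 0.0453 to 8.97 CPM with a median of 0.987 CPM at 10 weeks, so the highest libraries at 20 weeks lay far above all of those at 10 weeks. With 4 equal ranges as strata in place of the 3, Nfu_g_1_006434 was called (1.36, 1.17 to 1.58, adjusted p = 0.00988). So was Nfu_g_1_007924 (2.60, 1.55 to 4.37, adjusted p = 0.0258), which made 2 of the 100 genes beside 410 of 17116 (2.4%). The limits of the 4 ranges cut across those of the 3, so a stratum can hold fish of ranges that differ in lifespan. With the 3 ranges as strata but without fish that died within 24 weeks, the lowest adjusted p of the 100 genes was 0.307. In the model with the 3 ranges as strata, RSL24D1 had 1.16 (0.566 to 2.39), MYLIP 1.26 (0.668 to 2.37) and PDCL3 1.08 (0.601 to 1.94). In the same model HFM1 had 1.18 (0.742 to 1.86), CDKN1A 1.04 (0.799 to 1.36) and APOE 1.67 (0.842 to 3.29). These intervals are wide and hold 1, so neither a relation nor its absence was shown within the ranges.

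**Figure D5:**
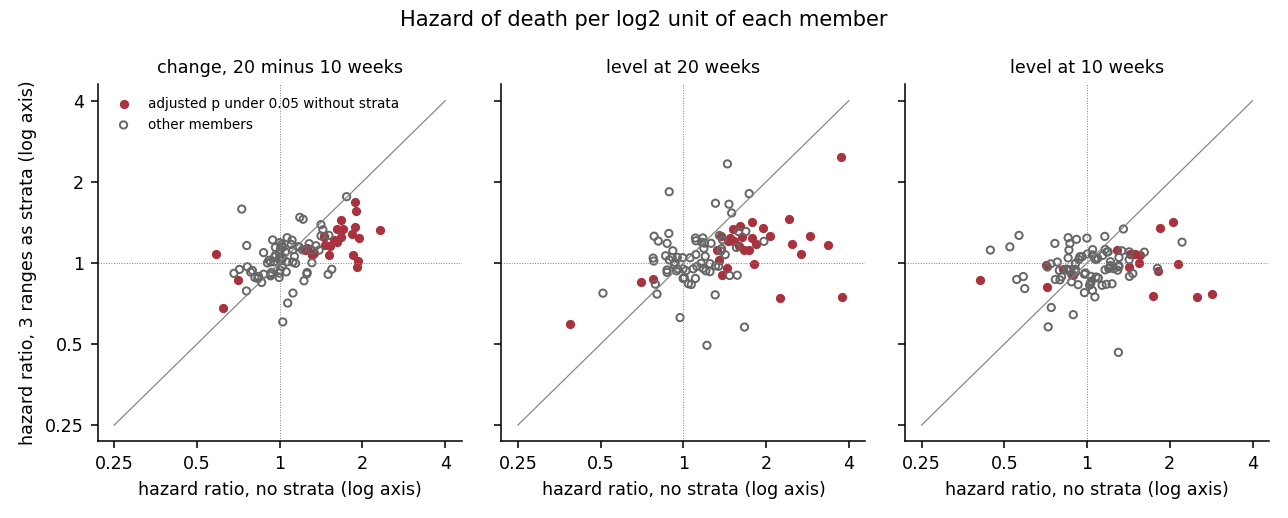
Hazard ratio per log2 unit of each of the 100 genes with the 3 ranges as strata (y axis, log scale) against that without strata (x axis, log scale), for the change, the level at 20 weeks and the level at 10 weeks, with genes called without strata in red. Most red points lie below the diagonal at high ratios, as RSL24D1 at 20 weeks does with a ratio of 1.16 with strata and 3.36 without.

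At 10 weeks, before the rise, 19 of the 100 genes were called without strata, 14 with a hazard ratio above 1. Of all 17116 genes 4331 (25.3%) were called, 1982 of them above 1. The levels at 10 weeks enter the choice of the genes as well, so these counts are not a comparison either. RSL24D1 (2.84, 1.81 to 4.46, adjusted p = 0.000551) and Nfu_g_1_019448 (1.54, adjusted p = 0.00426) had the lowest p above 1, and Nfu_g_1_022824 (0.820, adjusted p = 0.0011) and Nfu_g_1_006786 (0.407, adjusted p = 0.0151) below it. With the 3 ranges as strata 0 of 17116 genes (0.0%) were called, 3 of the 100 genes had an unadjusted p under 0.05 beside 1.72% of all genes, and RSL24D1 stood at 0.767 (adjusted p = 1.0).

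Whether the relation with age at death differed between the 2 clips was tested directly, in a Cox model with the change and the mean of both levels and the 3 ranges as strata. It was called in 0 of the 100 genes and 0 of all 17116, and 9 of the 100 had an unadjusted p under 0.05, beside 7.83% of all genes. The lowest p were those of Nfu_g_1_006434 (hazard ratio of the change 1.27, 1.10 to 1.46, adjusted p = 0.333) and Nfu_g_1_007924 (1.72, 1.17 to 2.52, adjusted p = 0.452), and in the other direction those of Nfu_g_1_020330 (0.836, adjusted p = 0.566) and Nfu_g_1_000326 (0.774, adjusted p = 0.581). Nfu_g_1_007924 had 39 to 659 CPM with a median of 251 CPM at 20 weeks, and 36.6 to 277 CPM with a median of 171 CPM at 10 weeks.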

How the data were processed

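RNA-seq libraries of 228 fin clips were made, per the labels, with a kit that keeps no strand information (TruSeq RNA v2). The authors deposited raw counts per gene, and featureCounts 1.5.0, TopHat2 2.1.0 and bcl2fastq 1.8.4 are listed in the submitters' processing notes. Which genome build was used is not given in the sources used here. Genes and lists were chosen with earlier results of these data known. CPM were computed from column totals, with a pseudocount of 1 on the log2 scale. Named genes were the first 10, all with a name, those at the limit of the list and, for age at death, the 2 with the lowest p in each direction. The age comparison used edgeR 4.0.16 (quasi-likelihood test, TMM, filterByExpr, fish as a block, R 4.3.3), with limma 3.58.1 and DESeq2 1.42.0 as alternatives. Pairs of samples come from the fish named in the labels, and were checked over 300 genes. Cox models were fitted with survival 3.8.3 (two-sided Wald tests, ties after Efron) on log2 counts scaled by DESeq2 size factors with a pseudocount of 1. Scripts were tested on simulated data. P-values of the age comparison rest on the spread, over fish, of the change within a fish. In the Cox models the fish are the units. Sequences are not used here, and some of the named genes are not reported here.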

Additional observations from a re-analysis of the deposited data

How the results depend on the processing

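Of the 100 genes, 76 to 96 were chosen again with TMM-scaled sizes, a pseudocount of 0.5, medians, 4 equal ranges, or without unmatched fish, fish of low TMM factor or fish that died within 24 weeks, and 68 without fish 51 to 84. The list changed more with a mean of at least 1 CPM (66 chosen again), at least 10 CPM (65), without fish 1 to 50 (23) and without fish from 85 upwards (54); fewer genes reach 10 CPM, and fish 1 to 50 set the smallest mean for most genes. Range means above 0 were kept by every gene ranked under these settings. With another limit on CPM, or with a range left out, the means are those that chose the genes, so this outcome was fixed in advance. The age comparison called 10654 genes with the fish as a block and 10307 with no replicate block, and the other alternatives, column totals, no filter, limma and DESeq2, stayed within 1.5 times of this.

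Calls for age at death depended on the strata. For the change, 0 genes were called with the 3 ranges as strata, also without fish that died within 24 weeks (0) and without unmatched fish (0), and 32 with 4 equal ranges. For the level at 20 weeks the counts were 67, 8, 98 and 410 in the same order (0, 0, 0 and 2 of the 100 genes), and for the level at 10 weeks 0 each time. The test of the difference between the clips called 7946 genes with no strata. With the 3 ranges as strata, the hazard ratio passed to the other side of 1 in 2 of 27 of the 100 genes called without strata for the change (POMZP3 at 1.08 among them), in 5 of 32 for the level at 20 weeks (stxbp5l at 0.900 and CSTA at 0.956) and in 6 of 19 for the level at 10 weeks (HFM1 at 0.930 and PDCL3 at 0.987). Among the genes named for their lowest p, directions turned for the level at 10 weeks of RSL24D1 with the 3 ranges as strata, with a hazard ratio of 0.767, of 0.868 without early deaths and of 0.677 without unmatched fish, for Nfu_g_1_019448 without unmatched fish (0.991) and for Nfu_g_1_000326 in the test of the difference with no strata (1.12). The cause was not tested, and the counts of genes that passed to the other side of 1 were not made over all genes called. The models of the levels without unmatched fish, and those of the difference without strata or without unmatched fish, were added after seeing the data. Numbers of fish per range limit what the stratified models can show.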
